A study of Mus musculus with 6 samples.

Results

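The 10 mature miRNAs described here come from 6 hairpins, miR-337, miR-431, miR-433, miR-127, miR-434 and miR-136. These hairpins form the proximal miRNA group of the Dlk1-Dio3 imprinted domain of the mouse. They were taken by name from the 685 mature miRNAs listed in every library: both arms of miR-127, miR-136, miR-431 and miR-434, the 5p arm of miR-337 and the 3p arm of miR-433. The libraries came from N2a cells, a mouse neuroblastoma line. All cells were differentiated with 10 µM retinoic acid over 96 h. The 3 RSL3 libraries came from such cells after 24 h with 5 µM RSL3, which inhibits the lipid peroxidase GPX4 and induces ferroptosis, and the 3 DMSO libraries from cells given the solvent. The libraries address how miRNA levels stand after RSL3. The comparison rests on 1 cell line, and no allele or extent of cell death was measured in the values used here.

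Imprinted genes are expressed from the copy of 1 parent. In the Dlk1-Dio3 domain the protein-coding genes Dlk1 and Rtl1 are expressed from the paternal copy, and the long noncoding RNAs Meg3, Rian and Mirg, with the miRNAs, from the maternal copy. The miRNAs antisense to Rtl1 match its mRNA perfectly and are known to direct its cleavage, and the domain's miRNAs are abundant in brain and embryo. Among the members, miR-127 is known to repress BCL6 and miR-431 to promote axon growth.

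The mature sequences are shown because they carry both the identity of the reads and the match to Rtl1. All 10 matched the RefSeq table for GRCm38.p6. In each line the seed, bases 2 to 8, is in capitals.
mmu-miR-337-5p: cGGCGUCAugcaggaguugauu
mmu-miR-431-5p: uGUCUUGCaggccgucaugca
mmu-miR-431-3p: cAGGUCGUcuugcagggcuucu
mmu-miR-433-3p: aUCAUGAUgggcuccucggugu
mmu-miR-127-5p: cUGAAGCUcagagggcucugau
mmu-miR-127-3p: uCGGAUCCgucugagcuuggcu
mmu-miR-434-5p: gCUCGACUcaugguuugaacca
mmu-miR-434-3p: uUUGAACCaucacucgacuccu
mmu-miR-136-5p: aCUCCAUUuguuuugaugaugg
mmu-miR-136-3p: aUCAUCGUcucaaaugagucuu

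The 10 seeds were all different, so the members form no seed family. None was shared with another of the 554 listed entries that matched RefSeq by name, of which 73.1% had a seed of their own. The longest run of bases that any member shared with another matched entry was 11, below the 15 nt of the shortest insert selected for the libraries. Entries without a RefSeq match were not compared.

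The 6 hairpins lie on the plus strand of chromosome 12 within 9600 bp. In order they are miR-337 (chr12:109585789-109585885), miR-431 (chr12:109590447-109590537), miR-433 (chr12:109591715-109591838), miR-127 (chr12:109592846-109592915), miR-434 (chr12:109594506-109594599) and miR-136 (chr12:109595327-109595388), in GRCm38. Of the 6, 5 lie within the coding part of an exon of Rtl1, which runs on the minus strand in the GENCODE annotation. The label Rtl1-antisense therefore does not hold for miR-337 in this annotation: its hairpin overlaps only miR-3544, on the opposite strand. The reverse complement of each of the other 5 hairpins was found whole in the Rtl1 transcript, and 9 of the 10 mature members had a perfect site there. For miR-127-3p the site runs from base 2642 to 2663 of the transcript, in the coding sequence. The site is printed here to show the match, with the bases opposite the seed in capitals.
Rtl1 site of miR-127-3p: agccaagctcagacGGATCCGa

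The hairpins of miR-127 and miR-434 are shown because the first gave most of the reads and the second is the hairpin whose arm ratio did not overlap between groups. Capitals mark the mature arms.
miR-127 hairpin: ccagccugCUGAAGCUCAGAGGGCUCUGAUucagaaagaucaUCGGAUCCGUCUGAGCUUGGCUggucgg
miR-434 hairpin: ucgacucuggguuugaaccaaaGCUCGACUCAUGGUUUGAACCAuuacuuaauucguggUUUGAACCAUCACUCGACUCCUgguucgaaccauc
The arms of miR-434 share the 9-base run UUUGAACCA, which occurs 3 times in this hairpin. Of 1005 RefSeq mouse hairpins searched on both strands, only 1 (0.0995%) held it, the miR-434 hairpin from which it was taken. The arms of miR-431 share 10 bases, GUCUUGCAGG, the longest such run among 134 precursors with both arms matched, where the median was 4. The hairpins of miR-136 and miR-337 face annotated hairpins on the opposite strand, miR-3071 and miR-3544, neither of which had an entry among the 685.

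**Figure D1:**
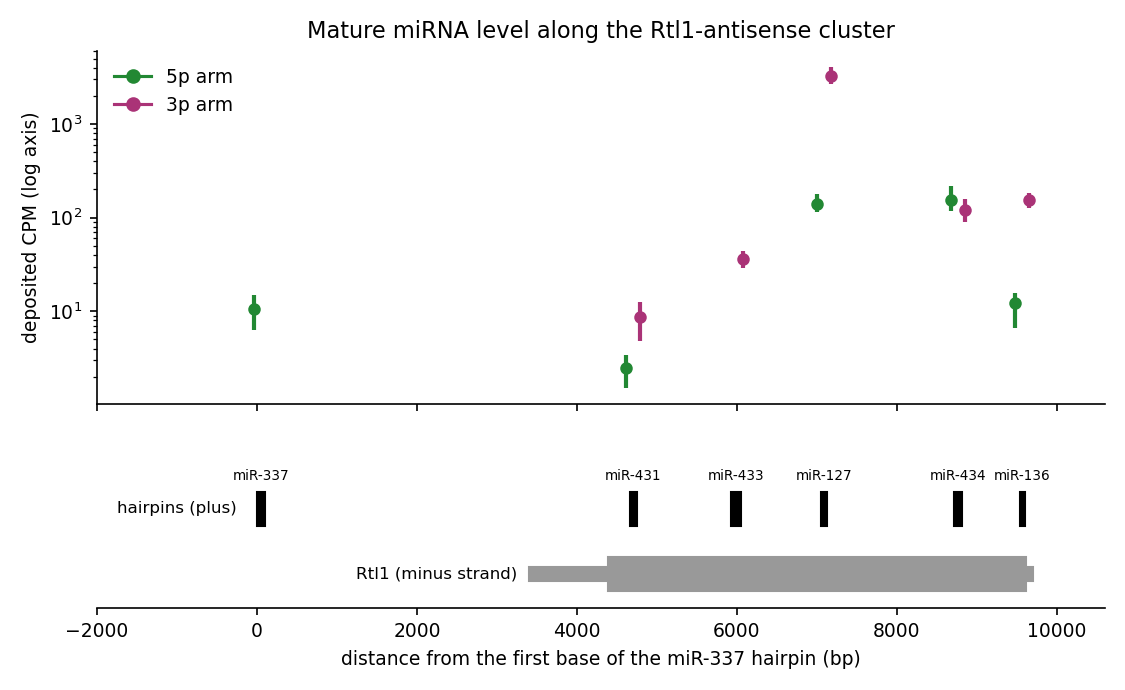
Level of the mature arms along the cluster. The upper panel plots deposited CPM on a log axis against distance in bp from the first base of the miR-337 hairpin, with each arm drawn beside its hairpin (5p to the left, 3p to the right), points for the mean and vertical lines for the lowest and highest of 6 libraries. The lower panel shows the hairpins on the plus strand and the Rtl1 exon (thick where coding) on the minus strand. The 3p arm of miR-127 stands at 2666 CPM or above in every library and all other arms below 220 CPM.

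The libraries held 3406276 to 6058006 recovered miRNA reads each, and a read was worth 0.157 to 0.314 CPM. CPM is the authors' normalised signal, reads scaled to a nearly common library total. The limit that a count of 0 allows, 3 reads, was 0.470 to 0.941 CPM, for counting error only. The neuronal markers miR-9-5p (2781 to 5278 CPM), miR-128-3p (1787 to 2386 CPM) and miR-124-3p (135 to 221 CPM) were present in every library. Of markers of other tissues, the liver miRNA miR-122-5p was at 1.41 to 5.96 CPM, the muscle miRNAs miR-133a-3p at 1.02 to 5.71 CPM and miR-1a-3p at 65.8 to 185 CPM, and the blood miRNA miR-451a at 58.8 to 115 CPM. The blood miRNAs miR-223-3p and miR-142a-3p had no entry. The part of other cells in the results was not tested.

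The 3p arm of miR-127 dominated the group. It measured 3494, 2666 and 3145 CPM in DMSO libraries 1 to 3 and 2754, 4086 and 3174 CPM in RSL3 libraries 1 to 3. RSL3 library 2 was the highest and DMSO library 2 the lowest, and the groups overlapped. By its mean over the 6 libraries miR-127-3p ranked 36th of the 685 entries. It held 82.9% to 83.9% of the summed level of the 10 members in every library, although that sum ranged from 3185 to 4913 CPM.

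The next 4 members lay close together. The 3p arm of miR-136 measured 170.2, 127 and 179 CPM in the DMSO and 133, 185 and 138 CPM in the RSL3 libraries. The 5p arm of miR-127 measured 153, 116 and 145 CPM and then 122, 179 and 118 CPM. These values overlapped between groups for both miRNAs, with RSL3 library 2 on top.

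For miR-434 the groups overlapped in the 3p arm but not in the 5p arm, while the change in the arm ratio had a limma adjusted p of 0.40. The 5p arm measured 144, 117 and 131 CPM in the DMSO libraries and 146, 219 and 171 CPM in the RSL3 libraries, so that every RSL3 value lay above every DMSO value, by 1.30 CPM at the closest. The 3p arm measured 124, 90.6 and 125 CPM and then 98.9, 158 and 122 CPM, with overlapping groups.

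The remaining members were lower. The 3p arm of miR-433, an miRNA known to target FGF20, measured 43.6, 34.4 and 40.0 CPM in the DMSO and 29.0, 40.2 and 31.3 CPM in the RSL3 libraries. The 5p arm of miR-136 measured 12.5, 11.8 and 6.69 CPM and then 12.7, 15.7 and 14.6 CPM, again without overlap, though DMSO library 1 and RSL3 library 1 differed by only 0.171 CPM. DMSO library 3 stood low for this arm, while its 3p arm there was the highest of the DMSO libraries.

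The 5p arm of miR-337 measured 12.5, 10.7 and 10.8 CPM in the DMSO and 6.35, 15.1 and 7.42 CPM in the RSL3 libraries. The 3p arm of miR-431 measured 8.62, 8.43 and 10.4 CPM and then 4.83, 12.6 and 7.82 CPM. In both miRNAs RSL3 libraries 1 and 3 lay below all DMSO libraries and RSL3 library 2 above them. The 5p arm of miR-431 was the lowest member, at 3.45, 3.33 and 1.77 CPM and then 1.52, 2.82 and 2.01 CPM, which came from 6 to 22 reads. For its lowest value, 6 reads in RSL3 library 1, the 95% exact binomial interval ran from 0.56 to 3.32 CPM.

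In the order of mean levels, the ranges over the 6 libraries were separate between miR-127-3p and miR-136-3p, between miR-434-3p and miR-433-3p, between miR-433-3p and miR-136-5p, and between miR-431-3p and miR-431-5p. Within the block of miR-136-3p, miR-434-5p, miR-127-5p and miR-434-3p, and within that of miR-136-5p, miR-337-5p and miR-431-3p, the ranges of neighbours overlapped. Reads per mature miRNA do not scale with transcript length, but ligation and amplification can favour some sequences, so these orders are of reads, not of molecules.

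**Figure D2:**
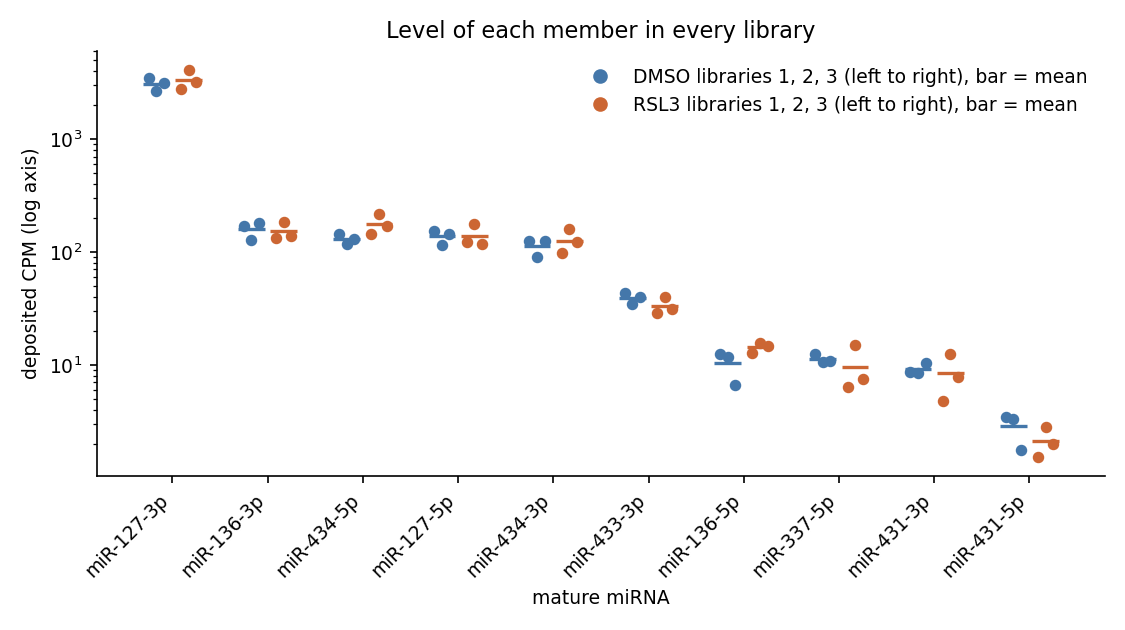
Deposited CPM (log axis) of the 10 members, ordered by mean, in DMSO libraries (blue) and RSL3 libraries (orange), with replicates 1 to 3 from left to right and bars at the group means. The RSL3 points lie wholly above the DMSO points only for miR-434-5p and miR-136-5p, and RSL3 library 2, the middle orange point, is the highest of all 6 in 8 of the 10 members.

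After RSL3 no member passed the test. In limma on log2(CPM + 1), with Benjamini-Hochberg adjustment over all 666 miRNAs tested, 0 of the 10 members were called higher and 0 lower, where 4 of the 666 were called higher (0.601%) and 1 lower (0.150%), 0.751% in either direction. Of the 10 fold changes 5 were positive and 5 negative, with a median of -0.031 beside 0.00134 over all miRNAs tested. All members exceeded the filter of 1 CPM in all 6 libraries. At an unadjusted p under 0.05 there was 1 member in limma, 1 in edgeR and 1 in DESeq2, against 17.3% of all miRNAs in limma, and after adjustment edgeR also called 0 members (0.901% of all miRNAs) and DESeq2 0 (10.5% of the 382 it gave an adjusted p). The 4 lowest members had no adjusted p in DESeq2. In these bulk libraries fewer cells with a miRNA and less of it per cell cannot be told apart.

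The abundant miR-127-3p averaged 3102 ± 416 CPM with DMSO and 3338 ± 681 CPM with RSL3 (SD, n = 3 for each). Its log2 fold change of 0.095 ± 0.15 (SE) had a 95% interval of -0.23 to 0.42 and an adjusted p of 0.76 in limma. Among the 5 most abundant members the largest log2 fold change was that of miR-434-5p, at 131 ± 13.8 CPM with DMSO and 178 ± 37.3 CPM with RSL3. Its log2 fold change was 0.43 ± 0.16 (SE), with a 95% interval of 0.094 to 0.77, an unadjusted p of 0.016 and an adjusted p of 0.17 in limma, where it ranked 65th of 666 by p. It was the member at an unadjusted p under 0.05 in limma, edgeR and DESeq2, with adjusted p-values of 0.15 in edgeR and 0.066 in DESeq2. Without RSL3 library 2 its log2 fold change was 0.28, with an adjusted p of 0.35 in limma, and over all alternatives its adjusted p ran from 0.064 to 0.73.

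The 5p arm of miR-136 changed by 0.48 ± 0.24 (SE) on the log2 scale, with a 95% interval of -0.036 to 0.99 (limma adjusted p = 0.32), from 10.3 ± 3.18 to 14.3 ± 1.51 CPM. Without DMSO library 3 the log2 fold change was 0.22. On the deposited scale, groups that did not overlap were found in these 2 of the 10 members, both with higher RSL3 values. They were found in 82 of the 666 miRNAs with higher (12.3%) and 80 with lower RSL3 values (12.0%). Per recovered read, without the authors' scaling, both members overlapped, as DMSO library 1 then lay above RSL3 library 1. There miR-434-5p had 921 of 6058006 reads against 573 of 3924599, and miR-136-5p had 80 against 50 reads. For the 3p arm of miR-433 the value was -0.23 ± 0.17 (SE) on the log2 scale (limma adjusted p = 0.51), from 39.3 ± 4.62 to 33.5 ± 5.91 CPM. It was -0.37 without RSL3 library 2 and -0.14 without RSL3 library 1.

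For the other 6 members the limma log2 fold changes ran from -0.30 for miR-337-5p to 0.14 for miR-434-3p, with adjusted p-values of 0.60 to 0.99. The intervals bound what the data leave possible. For miR-127-5p (0.00245, interval -0.37 to 0.37) and miR-136-3p (-0.064, interval -0.42 to 0.29) they lay within a 1.5-fold change either way. For miR-431-5p the interval reached from -0.90 to 0.32, and for miR-337-5p from -0.89 to 0.29. Single libraries moved these values: miR-337-5p was at -0.65 without RSL3 library 2, -0.082 without RSL3 library 1 and -0.18 without RSL3 library 3. For miR-431-5p, leaving out DMSO library 3 gave -0.51 and RSL3 library 2 gave -0.45, and it lay between -0.19 and -0.15 without DMSO library 1, DMSO library 2 or RSL3 library 1.

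**Figure D3:**
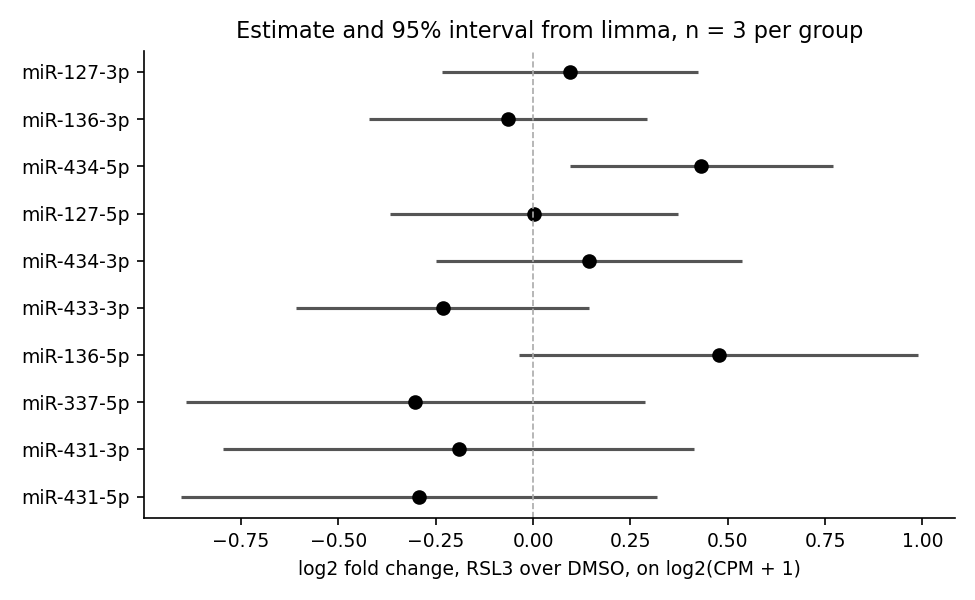
Log2 fold change of RSL3 over DMSO on log2(CPM + 1) for each member, as points with 95% intervals from limma (n = 3 per group). The interval of miR-434-5p, 0.094 to 0.77, is the only one of the 10 that does not cross 0, and its adjusted p was 0.17.

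The members' values were also compared by library. Each member's log2(CPM + 1) was set against its own mean over the 6 libraries. In RSL3 library 2 all 10 members were above their mean, by a median of 0.37, and 8 had their highest value, while 26.1% of the 666 tested miRNAs had theirs there and the median of all 666 was at 0.028. In RSL3 library 1, 1 of the 10 was above its mean (median -0.23), in RSL3 library 3 there were 3 (-0.13), and in DMSO libraries 1 to 3 there were 9, 2 and 6 (medians of 0.14, -0.15 and 0.083). RSL3 library 2 had the fewest reads and the highest deposited total, 1068892 CPM. With plain CPM from the recovered reads all 10 members were above their mean there, by a median of 0.28, and 7 had their highest value, against 16.2% of the 666. On that scale all 10 were also above their mean in DMSO library 1, by a median of 0.21. So were 444 of the 666 tested miRNAs, and the median of all 666 there was 0.087. On the deposited scale all 3 neuronal markers, miR-9-5p, miR-124-3p and miR-128-3p, were highest in RSL3 library 2, as were miR-122-5p and miR-451a. By the same deposited values miR-1a-3p and miR-133a-3p were highest in DMSO library 3. Their part in the members' levels was not tested.

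This spread was far above counting noise for the abundant members and near it in both groups for the lowest member, miR-431-5p. For miR-127-3p the coefficient of variation between libraries came to 13.4% with DMSO and 20.4% with RSL3, where counting alone gives 0.791% and 0.877%. For miR-434-5p it was 10.6% and 20.9% against 3.85% and 3.80% from counting. For miR-431-5p it was 32.8% and 31.0% against 26.8% and 35.3%, so that its differences between libraries were of the size of counting error.

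**Figure D4:**
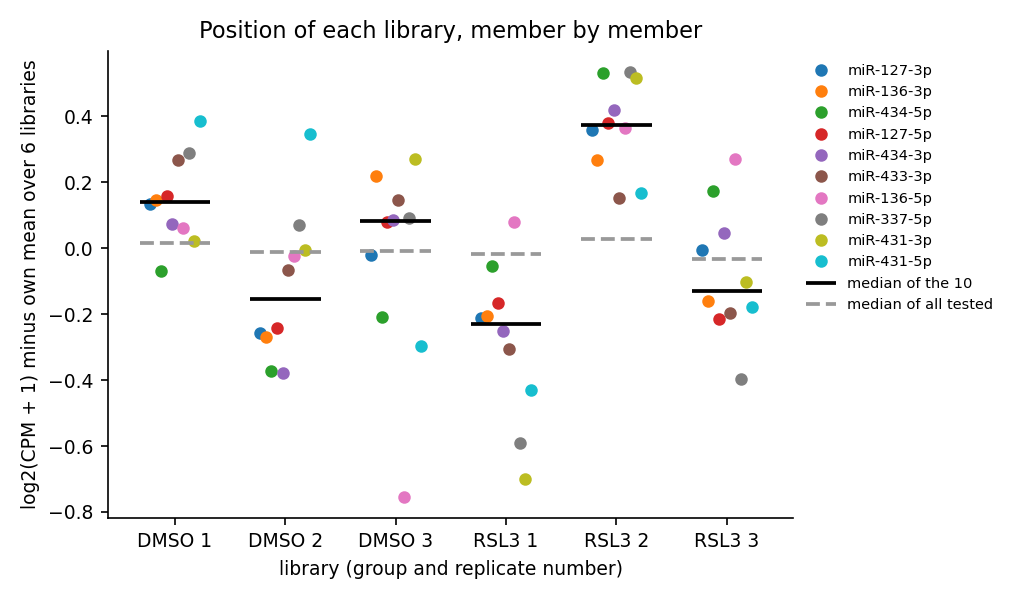
Difference of log2(CPM + 1) from each member's own mean over the 6 libraries, by library. Coloured points are the 10 members, black bars their median and grey dashed bars the median of all 666 tested miRNAs. All 10 points of RSL3 library 2 lie above 0, with a median of 0.37, and the grey bars stay within 0.04 of 0.

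The arms of a hairpin arise from 1 precursor and are read in the same library, so their plain ratio does not depend on the scaling between libraries. The log2(5p/3p) tested here adds 1 CPM to each arm, so for low arms it does depend on scaling. Of the 4 members' precursors with both arms listed, 0 passed in limma, over 182 precursors of which 5 passed (2.75%). At an unadjusted p under 0.05 there were also 0 of the 4, against 22.0% of the 182. The 3p arm was the larger in miR-127, miR-136 and miR-431, and the 5p arm in miR-434, in all 6 libraries.

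In miR-127 the 3p arm was 22.9, 23.1 and 21.7 times the 5p arm in DMSO libraries and 22.6, 22.9 and 26.9 times in RSL3 libraries. These ratios kept within 21.7 to 26.9 while the level of the 3p arm ranged from 2666 to 4086 CPM. The change in log2(5p/3p) was -0.093 ± 0.18 (SE; limma adjusted p = 0.84), and -0.012 without RSL3 library 3.

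In miR-434 the ratio of 5p to 3p was 1.16, 1.29 and 1.04 in DMSO and 1.47, 1.38 and 1.40 in RSL3 libraries, so all 3 RSL3 values were above all 3 DMSO values. The mean log2 ratio was 0.21 ± 0.15 with DMSO and 0.50 ± 0.047 with RSL3 (SD, n = 3 for each). The difference of 0.29 ± 0.17 (SE) had a 95% interval of -0.089 to 0.67, an unadjusted p of 0.12 and an adjusted p of 0.40 in limma. Groups without overlap toward the 5p arm were found in 17 of the 182 precursors (9.34%), of which miR-434 was 1. Toward the 3p arm there were 27 (14.8%), and in either direction 44 (24.2%).

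In miR-136 the 3p arm was 13.6, 10.8 and 26.8 times the 5p arm in DMSO and 10.5, 11.8 and 9.40 times in RSL3 libraries. The change in log2(5p/3p) was 0.54 ± 0.29 (SE; limma adjusted p = 0.35), and without DMSO library 3 it was 0.19. For miR-431 the 3p arm was 2.50, 2.53 and 5.89 times the 5p arm in DMSO and 3.17, 4.44 and 3.90 times in RSL3 libraries, with a change of -0.10 ± 0.28 (SE; limma adjusted p = 0.88). With 0.5 or 5 CPM added to each arm in place of 1 CPM, the change of miR-431 was -0.13 or -0.021. In both precursors DMSO library 3 had the lowest share of the 5p arm, from 34 reads for miR-136-5p and 9 for miR-431-5p.

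**Figure D5:**
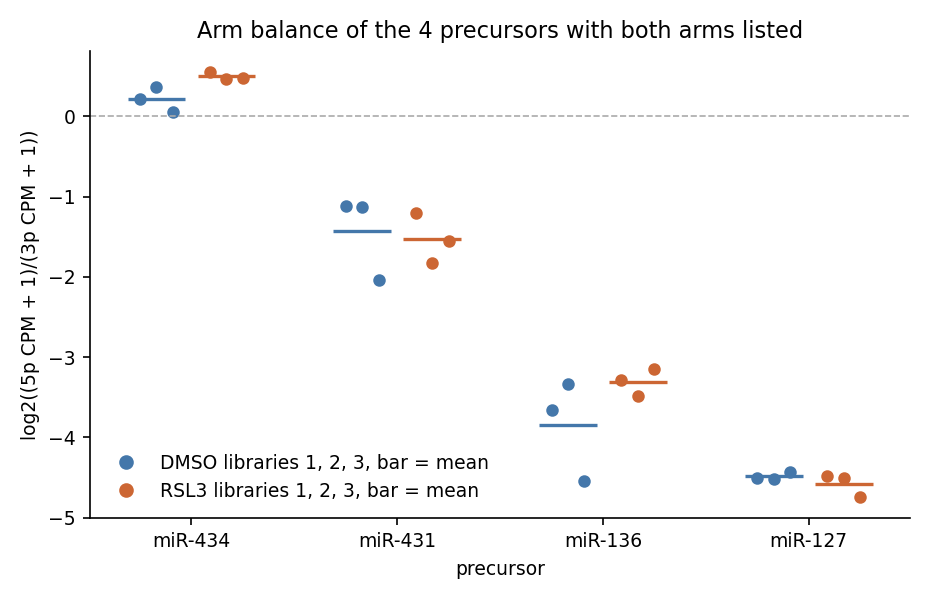
Log2 ratio of the 5p arm to the 3p arm, each CPM + 1, in the 4 precursors with both arms listed, for DMSO libraries (blue) and RSL3 libraries (orange), replicates 1 to 3 from left to right, with bars at the means and a dashed line at equal arms. Only in miR-434 do the 2 groups stand apart, with means of 0.21 and 0.50, and only its points lie above 0.

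Each member was also set against miR-127-3p in the same library, a comparison chosen after the data were seen. RSL3 library 2 remained the highest RSL3 library for miR-337-5p (0.369% of miR-127-3p, against 0.231% and 0.234%) and miR-431-3p (0.307%, against 0.175% and 0.246%). The level of miR-434-5p was 4.13%, 4.38% and 4.16% of that of miR-127-3p in DMSO and 5.29%, 5.36% and 5.38% in RSL3 libraries, with means of 4.22% ± 0.137 and 5.34% ± 0.0476 (SD, n = 3 per group). The level of miR-433-3p was 1.25%, 1.29% and 1.27% of it in DMSO and 1.05%, 0.983% and 0.986% in RSL3 libraries, with means of 1.27% ± 0.0218 and 1.01% ± 0.0391. For both, the groups lay apart by more than the spread within either.

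The other 7 ratios overlapped between groups. Over all 665 other miRNAs tested, the ratio to miR-127-3p did not overlap between groups in 31 with higher (4.66%) and 43 with lower values (6.47%). In limma fitted on these ratios over the 665, miR-434-5p changed by 0.34 on the log2 scale and miR-433-3p by -0.33, both with an adjusted p of 0.73, and 1 miRNA of 665 passed (0.150%). At an unadjusted p under 0.05 there were 0 members there, against 5.86% of the 665. The spread of both ratios within groups was below the counting error of the reads, which is 3.80% to 3.85% of the level for miR-434-5p and 7.02% to 8.74% for miR-433-3p, so the closeness of the replicates understates their error.

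The other miRNAs of the domain were counted from lists of precursor names. On the Meg3 to Rian side 8 entries were tested and 0 passed in limma, with 1 positive and 7 negative log2 fold changes and a median of -0.12. Its most abundant entries were miR-341-3p (150.4 ± 18.6 and 143 ± 32.2 CPM in DMSO and RSL3 libraries), miR-370-3p (72.3 ± 9.25 and 66.4 ± 14.7 CPM) and miR-770-3p (12.6 ± 2.15 and 12.0 ± 3.47 CPM). In the distal miR-379 to miR-410 cluster of Mirg, whose annotated gene starts 134 kb beyond the miR-136 hairpin, 0 of 39 tested entries passed, with 21 positive and 18 negative log2 fold changes and a median of 0.033. It was led by miR-381-3p (2192 ± 351 and 2142 ± 495 CPM), miR-300-3p (189 ± 25.5 and 227 ± 67.3 CPM) and miR-379-5p (153 ± 43.6 and 203 ± 48.2 CPM). Unadjusted limma p-values under 0.05 went to 1 entry on the Meg3 to Rian side, lower in RSL3 libraries, and to 4 in the distal cluster, of which 3 were higher, beside 115 of all 666 (17.3%). In edgeR, and again in DESeq2, these numbers were 0 and 4, beside 113 and 95 of the 666, with 0 calls after adjustment in both lists.

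The distal cluster stood similarly in the libraries on the deposited scale. In RSL3 library 2, 35 of its 39 entries were above their own mean, by a median of 0.37, and 26 had their highest value. With plain CPM 33 were above their mean there, by a median of 0.29, and 18 had their highest value. In DMSO library 1, 35 were also above their mean as deposited, where 4 had their highest value. With plain CPM 36 were above their mean in that library and 13 had their highest value. Beside them, 444 of all 666 were above their mean there with plain CPM, and 19.2% had their highest value. On the Meg3 to Rian side 6 of 8 entries were above their mean in RSL3 library 2 as deposited, and 5 with plain CPM. All 8 were above it in DMSO library 1 on both scales. As deposited 4 were highest in RSL3 library 2 and 3 in DMSO library 1. With plain CPM these numbers were 2 and 5. The 10 members held 50.8%, 51.4% and 50.6% of the summed signal of the 3 lists in DMSO and 52.4%, 51.9% and 53.6% in RSL3 libraries. Added up, they came to 3715 ± 495 CPM with DMSO and 4002 ± 824 CPM with RSL3, and the distal cluster to 3341 ± 497 and 3383 ± 779 CPM.

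With the 10 members left out, the miRNAs whose profile was most like that of miR-127-3p over the 6 libraries lay outside the domain. Likeness was the root mean square difference of centred log2(CPM + 1), among 222 candidates with a mean of at least 100 CPM. The members were not candidates, so how like they were to each other is not given here. The closest were miR-219a-2-3p (0.040), miR-5099 (0.061) and miR-132-5p (0.070), where the median candidate stood at 0.26. For miR-434-3p they were miR-129-5p (0.104), miR-5099 (0.107) and miR-219a-2-3p (0.111), with a median of 0.31. These likenesses describe 6 libraries and carry no test.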

How the data were processed

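Small RNA libraries were sequenced from 3 DMSO and 3 RSL3 samples of N2a cells. The submitters' processing notes name cutadapt, Bowtie, edgeR and GRCm38; how reads matching several miRNAs were treated is not given in those notes as used here. The values deposited by the authors, named CPM in their tables, are a normalised signal whose sum per library runs from 949375 to 1068892. In a library all values are multiples of the smallest step, which gave back the reads (100% whole within 0.01). The step equals that of CPM divided by a TMM factor of 0.936 to 1.05, so the values are not plain CPM, which the planned design had assumed; the log-scale test was kept.

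The main test was limma 3.58.1 (R 4.3.3), two-sided and with a trended prior variance, on log2(CPM + 1), with Benjamini-Hochberg adjustment at 0.05 and a filter of 1 CPM in at least 3 libraries, which left 666 miRNAs. This scale understates the change of low miRNAs. Arm ratios were tested the same way. Alternatives with edgeR 4.0.16 and DESeq2 1.42.0 used the recovered reads. The scripts were tested on simulated data.

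The members, lists and tests were chosen with earlier results of these data known. All 10 members are named. Of other domain miRNAs the 3 most abundant per list are named, and, from outside the members, the 3 miRNAs most like miR-127-3p and miR-434-3p. Whether the replicates are separate cultures is not in the labels: p-values reflect the spread of these libraries, and that spread may be technical. Counting intervals cover counting error only.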

Additional observations from a re-analysis of the deposited data

How the results depend on the processing

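The counts of members called higher or lower in RSL3 libraries, 0 each as reported, were 0 under the 20 alternatives run: pseudocounts, filters (at 10 CPM miR-431-3p and miR-431-5p were not tested), scalings, variance models, edgeR, DESeq2, the replicate block, each library left out in turn, and values relative to miR-127-3p, which was chosen after the data were seen. In DESeq2 the 4 lowest members had no adjusted p, and relative to miR-127-3p that miRNA itself was not tested, so these could not be called there. The count of member precursors with a changed arm ratio was 0 as reported and under the 12 alternatives run for it: pseudocounts, the 10 CPM filter (where miR-431 was not tested), variance models, the block and each library left out. The counts over all miRNAs, 4 higher and 1 lower as reported, were 1 and 0 without a variance trend and relative to miR-127-3p, 4 and 2 in edgeR, 19 and 21 in DESeq2, 2 higher with plain CPM, 3 lower with a 10 CPM filter, 0 lower with median centring, 12 lower after rescaling without the 5 most abundant miRNAs, and 1 to 14 higher and 0 to 12 lower on leaving out single libraries (the cause was not tested). The log2 fold change of miR-127-5p, 0.00245 as reported, was -0.050 after that rescaling, -0.059 with plain CPM and -0.093 relative to miR-127-3p. With a library left out, directions turned for miR-127-3p (-0.060 to 0.22), miR-127-5p (-0.19 to 0.11), miR-136-3p (-0.21 to 0.030), miR-431-3p (-0.50 to 0.11), miR-434-3p (-0.031 to 0.31) and the arm ratio of miR-431 (-0.41 to 0.055). Without RSL3 library 2 the values of miR-127-3p, miR-127-5p and miR-434-3p were -0.060, -0.19 and -0.031. The summed level of the members, a log2 ratio of 0.11 as reported, was 0.038 with plain CPM and 0.055 after the same rescaling. Same-numbered libraries of the 2 groups showed no likeness. Their correlations of deviations were -0.35, -0.33 and -0.19, and 0 of them correlated best with their own number. Whether the samples were paired in the experiment cannot be told from these correlations. With the replicate block the counts were 1 higher and 0 lower over all miRNAs and 0 for the members.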
